A study of Homo sapiens with 7 samples.

Results

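HCT116 cells are an established line grown from a human colorectal carcinoma. The libraries described here are the 3 mRNA libraries of 7 samples in the series that came from HCT116 cells with a knockout of DROSHA and a control miRNA transfected into them. They were chosen by their label, not by any measured value. The other samples are 3 mRNA libraries of the same knockout cells transfected with miR-148a-3p, which serve here only as added depth for genes without a read, and 1 small RNA library from unmodified HCT116, which is not used here. Per the labels, the cells grew in McCoy's 5A medium with fetal bovine serum, RNA was harvested at 48 h and 500 ng of it entered an oligo-dT-primed 3' end library. No label states the deleted stretch of DROSHA, whether the knockout line is 1 clone, or whether the 3 libraries came from separate cultures, so the spread between them may be technical. All 3 carry the knockout and the transfection, so the values describe that state and not HCT116 cells as such.

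DROSHA is the nuclear RNase that cuts primary microRNA transcripts into hairpins, which DICER1 then trims to mature microRNAs. Colon epithelium is built from simple epithelial cells joined by cadherin, claudin and desmosome proteins, renewed from WNT-dependent stem cells and maturing into absorptive and secretory cells. HCT116 is known for activating mutations in PIK3CA and CTNNB1 and for defective mismatch repair. In an oligo-dT 3' end library reads come mainly from near the poly(A) tail, so counts scale little with transcript length and levels can be set side by side between genes on the CPM scale, where 1 CPM is 1 read in 1000000 counted.

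The 3 libraries held 1069154, 876131 and 890849 reads assigned to genes, in the order of control replicates 1, 2 and 3, and all values below are given in that order. A count of 3 reads equals 2.81, 3.42 and 3.37 CPM in them. Control replicate 1 stood apart. Over genes of 50 CPM or more, the SD of the log2 ratio was 0.51 between replicates 1 and 2, 0.50 between 1 and 3, and 0.34 between 2 and 3. The chi-square of the counts per degree of freedom, which is 1 where libraries differ by sampling alone, was 5.72, 5.80 and 2.58 for the same pairs, so each pair differed by more than sampling noise. Levels are given as mean ± SD over the 3 libraries in CPM. DROSHA itself, the targeted gene, had 31, 16 and 16 reads (21.7 ± 6.29 CPM), a level that does not check the knockout, because 3' end reads can lie outside the deleted part.

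The cells' mRNA was spread over many genes, with a short list of very abundant ones. Of 14635 gene symbols read in at least 1 control library, 11711 were read in all 3 and 8015 had at least 10 CPM in each. Of 20037 protein-coding genes in the RefSeq table, 39.2% (7849 genes) had 10 CPM or more in all 3 libraries and are called active below, a word for level only. A further 4983 were read below that level and are called low, and 7205 (36%) had no read in any of the 3 libraries. These shares cover protein-coding genes only and are the background for the list counts below. Genes read in all 3 libraries at any level made up 55.2% (11059 genes). The 100 most abundant genes held 22.9 ± 0.30% of the counts and the 1000 most abundant held 56.5 ± 0.267%. It took the top 681, 688 and 706 genes to reach 50% of each library's counts. The 114 genes at 1000 CPM or more held 24.4% of all counts, the 2001 genes between 100 and 1000 CPM held 47.2%, and the 7020 genes between 10 and 100 CPM held 26.6%. Protein-coding genes held 96.4 ± 0.263% of counts and long noncoding RNAs 2.89 ± 0.18%.

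**Figure D1:**
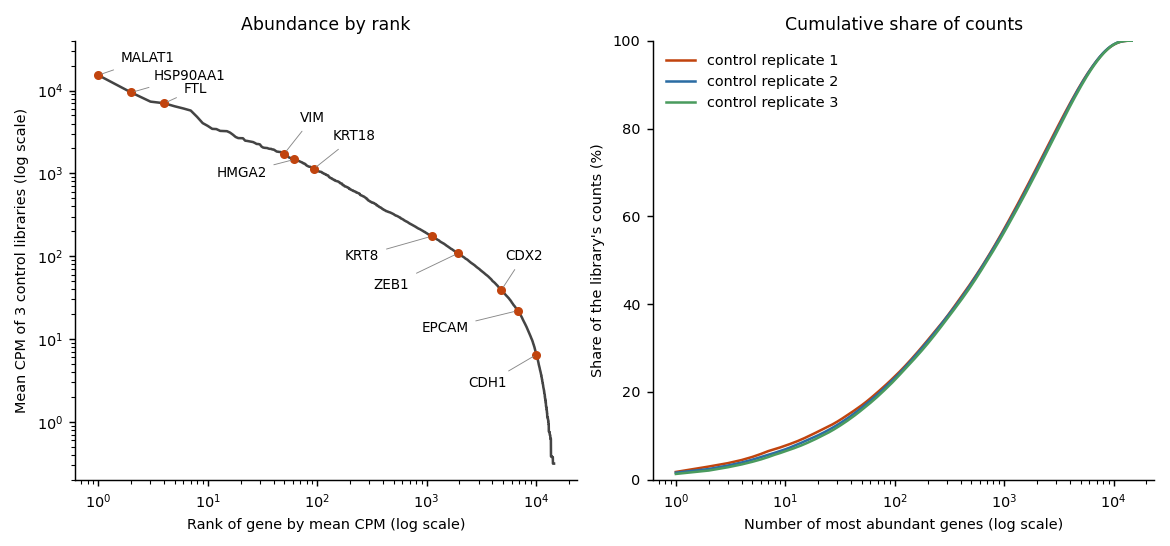
The left panel plots the mean CPM of each gene over the 3 control libraries (log scale) against its rank by that mean (log scale). Labelled genes run from MALAT1 at 15356 CPM to CDH1 at 6.46 CPM. The right panel plots, for each library, the share of its counts (%) held by its most abundant genes against their number (log scale), and the 3 curves run close together, with control replicate 1 slightly above the others over the first 100 genes.

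The most abundant gene in every library was MALAT1, a nuclear long noncoding RNA of chromosome 11 (chr11:65497738-65506516, GRCh38.p14), with 17450.2, 15724 and 12894 CPM. It alone held 1.75%, 1.57% and 1.29% of the counts, highest in replicate 1. The cytosolic HSP90 chaperone HSP90AA1 came next with 12297, 8396 and 7756 CPM, again highest in replicate 1. PABPC1, which coats poly(A) tails, followed with 6454, 8060.4 and 7550.1 CPM, here lowest in replicate 1. FTL, the ferritin light chain that stores iron, had 7826, 6824 and 6434 CPM. The second cytosolic HSP90 gene HSP90AB1 had 6078 ± 739 CPM and AKAP12, a scaffold that tethers protein kinase A at the membrane, had 5737 ± 1137 CPM. Of the 30 most abundant genes, 16 encode cytosolic ribosomal proteins. The others include GAPDH (3427), CCND1 (3246), PTMA (2933), TPT1 (2667), HSP90B1 (2661), MT2A (2464) and HMGA1 (2267), in mean CPM. CCND1 is the G1 cyclin that partners CDK4 and CDK6, MT2A is a metal-binding metallothionein, and HMGA1 is a chromatin protein of embryonic and tumour cells. RNU4ATAC, an RNA of the minor spliceosome that carries no poly(A) tail, also ranked among the 30, with 3861, 2356 and 2042 CPM. Its locus (chr2:121530880-121531009) lies inside the span of CLASP1 (chr2:121337776-121649462), and use of strand in the counting is not given in the sources used here. Whether reads of CLASP1 were counted for RNU4ATAC was not tested. Of the top 100 genes by mean, 81 were in the top 100 of every library.

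Cytosolic ribosomal proteins, the building blocks of the translating ribosome, supplied 44 of the 100 most abundant genes. All 32 genes of the small and all 48 of the large cytosolic subunit were active, against 39.2% of protein-coding genes, with medians of 1405 and 1101 CPM. Together they held 10.8%, 11.8% and 11.7% of the counts, lowest in replicate 1. Although the proteins enter the ribosome in equal numbers, their mRNA levels differed widely, with 137, 118 and 126 CPM for RPL22 and 7101, 6338 and 5929 CPM for RPL27A. Many of these genes have processed pseudogenes, and how the authors' counting treats reads that match several copies is not given in the sources used here, so the level of a single member is uncertain. The 57 genes with 10 or more named pseudogenes had a median of 1199 CPM and the 23 with fewer a median of 1363 CPM. Of the paralogs with restricted expression, RPS27L (1066 ± 114 CPM), a copy of RPS27, and RPL22L1 (246 ± 77.1 CPM) were active, while RPL39L, RPL10L, RPS4Y1 and RPS4Y2 had no read.

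Ribosomal protein mRNAs are known to begin with a C followed by a run of pyrimidines, the motif through which mTOR signalling controls their translation. The windows of the 6 most abundant ribosomal protein genes are shown to let that start be seen in the genes that lead this transcriptome. Each runs 5′ to 3′ from 20 bases before to 10 bases after the RefSeq gene start in GRCh38.p14, and capitals mark CTTT where it begins within 3 bases before to 8 bases after the start.
RPL27A: gagacttggcgaaggccttcCTTTttcgtc
RPS27A: cacactaaggagtgacacacaagacccaga
RPS6: gcgctaagcggaagttggccctCTTTtccg
RPLP1: gctgcgtataggcgcgagagcccCTTTcct
RPS24: ttggccggcgaatcgtggttctCTTTtcct
RPL37A: cctgcgcaccgcgtctcttcCTTTctgggc
These windows lie at chr11:8682772-8682801 on the plus strand (RPL27A), chr2:55231883-55231912 on the plus strand (RPS27A), chr9:19380227-19380256 on the minus strand (RPS6), chr15:69452798-69452827 on the plus strand (RPLP1), chr10:78033843-78033872 on the plus strand (RPS24) and chr2:216498824-216498853 on the plus strand (RPL37A). Of the 6, RPS27A has no CTTT near its annotated start, which says only that these letters are not in this window. CTTT, searched on the gene's strand only, was found there in 32 of the 64 ribosomal protein genes with a promoter entry (50%) and in 1482 of all 35116 promoters (4.22%). The first share counts genes and the second counts promoter entries, so they are not on the same basis. A match is a description of the letters and not of a start that was measured.

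The libraries carried the simple epithelial keratins KRT18, KRT19 and KRT8 at high levels and many junction and surface genes of the colon at low levels or unread. KRT18, a type I keratin of simple epithelia, had 1235, 1036 and 1120.3 CPM (1130.4 ± 99.5) and KRT8, its partner in the same filament, had 144, 178 and 199.8 CPM (174 ± 28.1). The partners thus stood at a KRT18 to KRT8 ratio of 6.67 ± 1.65. The RefSeq spans of the 2 genes overlap on chromosome 12 (KRT18 at chr12:52948855-52952906, KRT8 at chr12:52897191-52949860), and use of strand in the counting is not given in the sources used here. Nor is the handling of reads that match several genes, so the KRT18 to KRT8 ratio is uncertain. KRT19, also a simple epithelial keratin, had 445 ± 68.6 CPM. KRT7 was low with 13.1, 6.85 and 13.5 CPM, and of all 55 keratin genes 43 were unread (78.2%), beside 36% of all protein-coding genes. ANXA2, a calcium-dependent membrane-binding protein named with KRT18 and KRT8 as a marker of these libraries, had 2137, 1839.9 and 2131 CPM, which places it among the 100 most abundant genes. Because the libraries are bulk RNA, fewer cells that express a gene and less of its RNA per cell cannot be told apart.

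Of 23 genes of simple epithelial keratins and adhesion, 11 were active (47.8%), 6 low and 6 unread. This active share lay near the 39.2% of all protein-coding genes. Desmosome genes were well covered, with DSP, the plaque protein that anchors keratins, at 324 ± 46.2 CPM, JUP at 103 ± 13.4 and PKP3 at 26.7 ± 3.39. The tight junction scaffold TJP1 had 163 ± 31.6 CPM and the claudins CLDN4 and CLDN7 had 70.4 ± 17.7 and 24.4 ± 4.13 CPM. The adhesion molecule EPCAM had only 17, 28 and 16 reads (21.9 ± 8.74 CPM), and the splicing regulator ESRP1 had 13.8 ± 3.76 CPM. CDH1, which encodes E-cadherin, had 11, 6 and 2 reads (6.46 ± 4.04 CPM) and the tight junction protein gene OCLN had 6.74 ± 5.13 CPM. KRT20, CDH17, CLDN1, CEACAM5, CEACAM6 and LGALS4, all genes of the differentiated colon surface or its junctions, had no read. Of these 6, 4 also had no read in the miR-148a-3p libraries, where CLDN1 had 4 reads. A second set of 20 regulators of epithelial junctions and polarity, chosen after their values were seen, had 9 active members, beside 39.2% of all protein-coding genes. Its median was 8.64 CPM, beside 5.62 CPM for all protein-coding genes. The set was led by the integrin genes of the basal surface, ITGA6 at 243 ± 39.6 CPM and ITGB4 at 212 ± 56.8, and by the junction protein gene CXADR at 146 ± 22.7. The transcription factor genes GRHL2 and GRHL3, which drive epithelial junction genes, had no read in these libraries or in the miR-148a-3p libraries. At 3 reads the limit for each is 1.06 CPM over the 3 control libraries. Over all 6 it is 0.511 CPM, a value that pools the control libraries with another treatment.

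Mesenchymal genes were split as well, with a few at high levels and others unread. VIM, the intermediate filament of mesenchymal cells, had 1569, 1692 and 1911 CPM and SPARC, a secreted collagen-binding protein, had 1769, 1663 and 1609 CPM, both above KRT18 in every library. The VIM to KRT18 ratio was 1.54 ± 0.233. ZEB1, a repressor of epithelial genes, had 111, 103 and 111 CPM, which is even across libraries and above CDH1 in each. COL1A1 (56.8 ± 20.6 CPM), FN1 (41.8 ± 16.6) and TWIST1 (20.9 ± 8.34) were active at lower levels. Against these, COL1A2, DCN, LUM, PDGFRA, THY1 and PDGFRB, genes typical of fibroblasts, and CDH2, which encodes N-cadherin, had no read. In all, 6 of 19 mesenchymal and fibroblast markers were active (31.6%), 6 low and 7 unread. This active share lay near the 39.2% of all protein-coding genes. Of the 7 unread, 5 also had no read in the miR-148a-3p libraries, where PDGFRB had 5 reads. LGALS1 (677 ± 28.9 CPM) and CAV1 (242 ± 61.9 CPM), named after their values were seen, were also active.

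Transcription factors of the colon were present in part. SOX9, a factor of intestinal progenitors, was high in each library at 947, 857 and 1052 CPM. KLF5 (82.9 ± 2.45 CPM), EHF (72.3 ± 10.3) and PITX1 (52.5 ± 10.3) were active, and CDX2, the master factor of intestinal identity, had 26.2, 55.9 and 34.8 CPM. CDX1, HNF4A, GATA4, ISX and FOXA2 had no read. In all, 5 of 18 factors were active (27.8%), beside 39.2% of all protein-coding genes. Of 19 stem cell and WNT target genes 10 were active (52.6%), beside the same 39.2%. CCND1 led with 3246 ± 164 CPM, followed by the hyaluronan receptor CD44 (268 ± 10.3 CPM), and the WNT feedback genes AXIN2 (40.97 ± 3.24), NKD1 (29.1 ± 3.51), ZNRF3 (25.2 ± 3.23) and RNF43 (12.3 ± 2.17) were active. The feedback gene NOTUM (13.1, 7.99 and 2.25 CPM) and the WNT target SP5 (1.87, 0 and 16.8 CPM) were low. MYC had 33.7, 30.8 and 46.02 CPM and the WNT effector TCF7 had 43.4 ± 13.2 CPM, while the related factor LEF1 had no read. The crypt stem cell genes LGR5, ASCL2, OLFM4 and SMOC2 had no read. Mature cell types were nearly blank. None of 16 enterocyte genes was active and 14 had no read, with CA2 at 5.91 ± 4.23 CPM the highest. Of those 14, 12 also had no read in the miR-148a-3p libraries. All 17 goblet, enteroendocrine and Paneth cell markers, MUC2, TFF3, CHGA and DEFA5 among them, had no read in the control libraries, nor in the miR-148a-3p libraries.

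**Figure D2:**
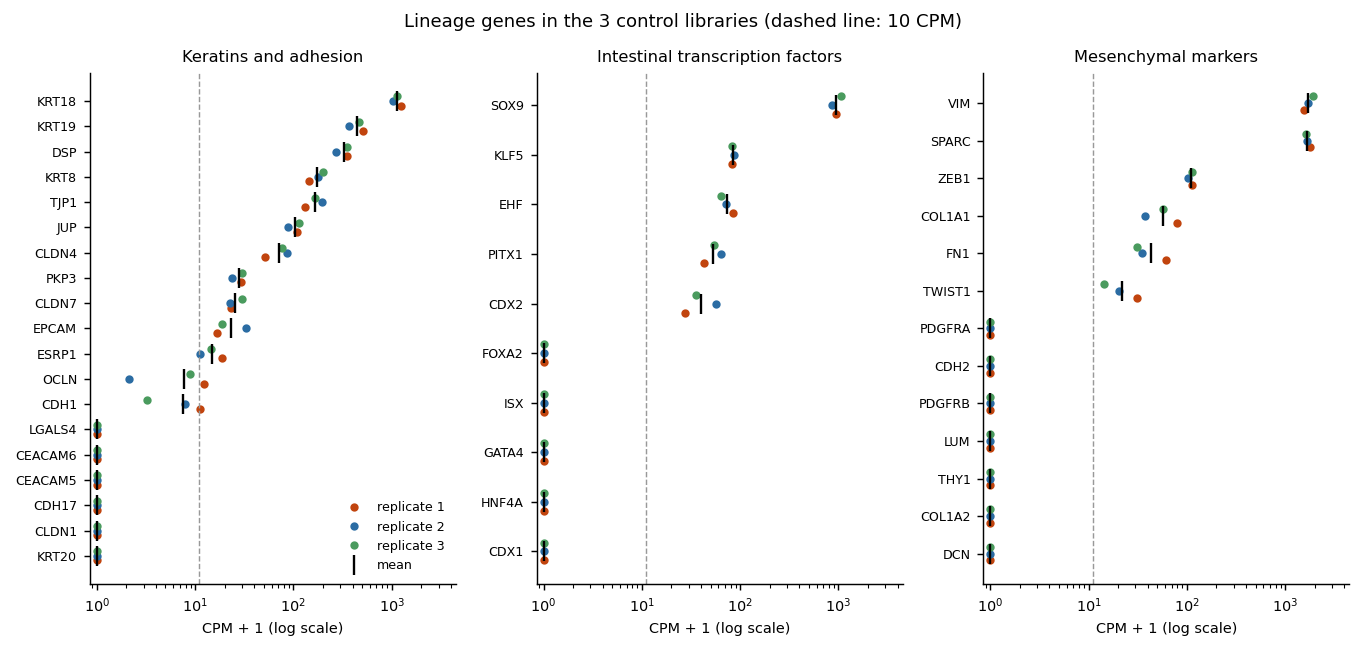
Each row is a gene of 1 of 3 lists (not every member is shown), with its CPM + 1 (log scale) in control replicates 1, 2 and 3 as points, the mean as a bar and 10 CPM as a dashed line. KRT18, SOX9, VIM and SPARC lie near 1000 CPM or above, CDH1 and OCLN lie at or left of the line in most libraries, and the unread genes sit at the left edge.

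HOX genes, which record position along the body axis, gave a pattern by cluster. Of 39 genes 16 were active and 7 unread, an active share near the 39.2% of all protein-coding genes. HOXA9 was the highest with 516, 377 and 392 CPM and HOXA10, its neighbour, had 195, 154 and 114 CPM, each highest in replicate 1. In the HOXB cluster every gene from HOXB3 to HOXB9 was active, with HOXB8 at 190.1 ± 61.2 CPM, HOXB7 at 114 ± 8.77 and HOXB3 at 114 ± 20.8. In the HOXC cluster HOXC9 (51.4, 53.6 and 44.9 CPM), HOXC6 (mean 22.3 ± 12.8) and HOXC8 (mean 17.6 ± 5.53) were active. No HOXD gene was active, and the highest, HOXD8, had 6.504 ± 2.97 CPM. Summed over each cluster the levels were 726 ± 118 CPM for HOXA, 771 ± 133 for HOXB, 103 ± 4.45 for HOXC and 10.3 ± 3.6 for HOXD. HOXA and HOXB do not differ beyond their spread, whereas the ranges of HOXC and HOXD lie below both and apart from each other. Replicate 1 was above the mean of the other two libraries in summed HOXA level by a ratio of 1.31 and in HOXB by 1.28.

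**Figure D3:**
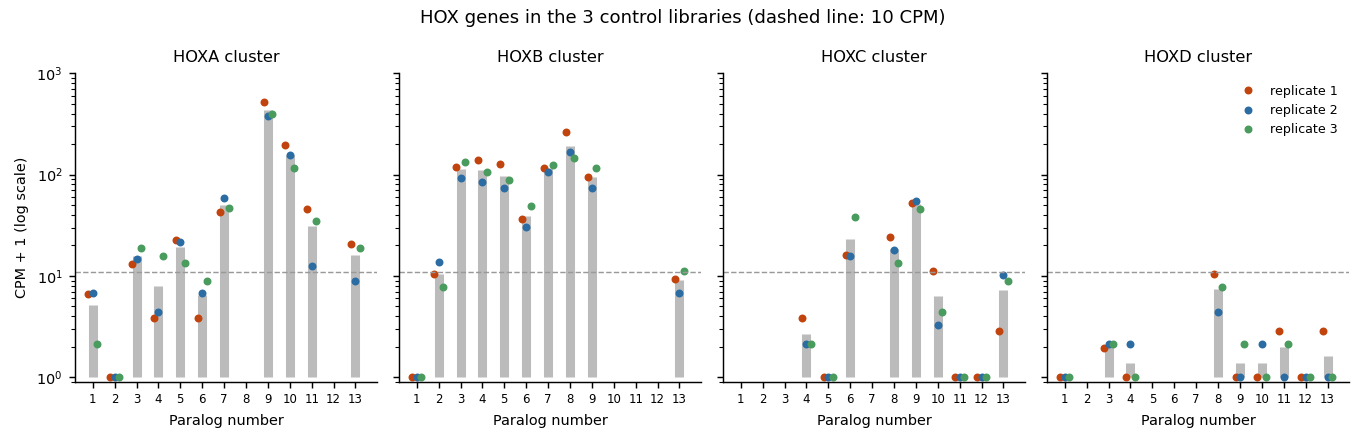
Each panel is 1 HOX cluster, with the paralog number on the horizontal axis and CPM + 1 (log scale) on the vertical axis, points for control replicates 1, 2 and 3 and a grey column up to the mean of 3. HOXA9 and HOXA10 stand above the rest of HOXA, the HOXB genes from 3 to 9 form a block above the dashed 10 CPM line, and the whole HOXD cluster stays below it.

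Markers of other tissues were rare. Of 130 distinct markers of mesenchymal, endothelial, blood, neural, muscle, liver, squamous, germ line, cancer-testis and lung, prostate, kidney or thyroid type, 11 were active and 89 had no read, against 36% unread among all protein-coding genes. Outside the mesenchymal list the active ones were MAP2 (153 ± 6.09 CPM), MBP (99.4 ± 17.9) and TUBB3 (70.2 ± 6.82) of the neural list, KRT10 (48.3 ± 5.31) of the squamous list and PRAME (60.5 ± 6.34) of the cancer-testis list. The defining genes PTPRC of blood cells, CDH5 of endothelium, NEFL and GFAP of neural tissue, MYOD1 of muscle, ALB of liver, KRT5 and TP63 of squamous epithelium and NANOG and POU5F1 of pluripotent cells had no read. XIST, TSIX and 8 Y-linked genes also had no read, and 9 of these 10 had none in the miR-148a-3p libraries. Of 9 oncofetal genes, which are expressed in the embryo and again in tumours and were chosen after their values were seen, HMGA2 had 1485, 1363 and 1573 CPM and IGF2BP2 825, 518 and 556 CPM. HMGA2 and the RNA-binding IGF2BP2 and IGF2BP3 (80.4 ± 10.6 CPM) were active, while IGF2BP1 (3.21 ± 2.32), LIN28B (0.624 ± 1.08) and TERT (1.68 ± 1.48) were low.

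Genes tied to the known lesions of this cell line were mostly active. Of 20 genes known to be mutated in HCT116, and their partners, 18 were active (90%), beside 39.2% of all protein-coding genes. Among them were CTNNB1 at 235 ± 76.4 CPM, PIK3CA at 37.6 ± 3.94 and TGFBR2 at 28.8 ± 20.7. CDKN2A, which encodes the p16 and p14 tumour suppressors, had 67.3, 183 and 144 CPM and was lowest in replicate 1. Among 9 mismatch repair genes 7 were active (77.8%), beside the same 39.2%. MSH6, the mismatch-binding subunit, had 151, 177 and 166 CPM, whereas PMS2, a subunit of the nicking complex that acts after it, was low with 3.74, 4.57 and 2.25 CPM. MSH6 was above PMS2 in every library, although PMS2 rests on 4, 4 and 2 reads. How reads matching several genes were counted is not given in the sources used here, so the level of PMS2 is uncertain.

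All 17 genes of microRNA processing and silencing were active, beside 39.2% of all protein-coding genes, with a median of 82.2 CPM. On the processing side, DGCR8, the RNA-binding partner of DROSHA, had 61.4 ± 23.5 CPM, the hairpin exporter XPO5 had 51.6 ± 15.4 and DICER1 had 216, 177 and 169.5 CPM. RAN, the GTPase that drives XPO5 export, was less even, with 257, 619.8 and 598 CPM and the lowest value in replicate 1. On the silencing side, AGO2 had 345 ± 82.5 CPM, above AGO1 (75.7 ± 14.2), AGO3 (52.2 ± 22.9) and AGO4 (22.3 ± 5.89) in every library. The GW182 scaffold genes TNRC6A (358 ± 17.6 CPM) and TNRC6B (301 ± 69.5) were above TNRC6C (82.2 ± 15.3) in every library. DDX6, the helicase that represses translation downstream of microRNAs, had 194, 162 and 166 CPM. DROSHA (28.99, 18.3 and 17.96 CPM) was the lowest of these 17 genes by mean, within its spread of AGO4.

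Of 33 receptor tyrosine kinases 16 were active, beside 39.2% of all protein-coding genes, led by AXL (183, 253 and 272 CPM), FGFR1 (115, 123 and 109), EGFR (136, 100.4 and 99.9), EPHA2 (43.96, 158 and 119) and DDR1 (86.05, 113 and 98.8). EPHA2 varied most of these and was lowest in replicate 1. ERBB4, FLT1, KDR, KIT, ROS1 and ALK had no read. Of 21 EGFR ligands and feedback genes of the ERK cascade 16 were active (76.2%), beside the same 39.2%. IER3, an immediate early gene, had 1796, 1826 and 1816 CPM and was among the 10 most even genes of 50 CPM or more. DUSP6, the phosphatase that switches off ERK, had 421, 587 and 642 CPM, and DUSP4 had 215 ± 26.2 CPM. The other immediate early gene FOS was low at 4.01 ± 3.22 CPM, and the ligand BTC had no read.

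Of 24 genes of growth arrest, apoptosis and the response to DNA damage 21 were active (87.5%), with a median of 76.1 CPM. Among all protein-coding genes the active share was 39.2%. CDKN1A, the p21 inhibitor of cyclin-dependent kinases, had 669.7, 679 and 639.8 CPM, the secreted stress factor GDF15 had 585, 469 and 282 CPM, and SFN, a 14-3-3 protein, had 312, 369 and 324 CPM. CDKN1A was even across libraries while GDF15 was highest in replicate 1 and lowest in replicate 3. Interferon-stimulated genes were active in 9 of 26 cases, near the 39.2% of all protein-coding genes. IFITM3 (431 ± 79.3 CPM) and IFITM2 (369.9 ± 49.9), which block virus entry, stood far above the other members, and the classical responders MX1 (4.88 ± 1.26 CPM), OAS1 (3.04 ± 4.33) and RSAD2 (0.374 ± 0.648) were low. In antigen presentation, B2M, the light chain of class I molecules, had 1425, 886 and 817 CPM. The peptide transporter genes split, with TAP2 at 27.1, 123 and 92.05 CPM and TAP1 at 10.2 ± 2.001 CPM. The class II genes HLA-DRA and HLA-DQA1, the invariant chain gene CD74 and the class II regulator CIITA had no read. HLA-DRA had 8 reads over the 3 miR-148a-3p libraries.

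Most genes of the energy pathways were active, beside 39.2% of all protein-coding genes, several through 1 of their isoforms. Of 24 glycolysis genes 18 were active, led by GAPDH (3427 ± 413 CPM), ENO1 (1977 ± 241) and PKM (1475 ± 268). Among alternatives, ALDOA (626 CPM) was above ALDOC (49.9), and PKM was read without PKLR. LDHB (595 ± 43.8 CPM) was above LDHA (245 ± 56.2), with an LDHA to LDHB ratio of 0.415 ± 0.101, and LDHC had no read. HK1 had 106 ± 12.7 CPM and HK2 7.96 ± 9.35 CPM. Of 10 genes of gluconeogenesis and ketogenesis 2 were active, and PCK1, G6PC1, FBP1 and FBP2 had no read. In the TCA cycle 19 of 20 genes were active with a median of 58.5 CPM, the exception being SDHC at 5.26 ± 1.68 CPM. Of 45 nuclear genes of the respiratory complexes 40 were active with a median of 154 CPM. UQCRB (969 ± 49.7 CPM) and COX4I1 (802 ± 14.3) led, and the tissue-specific isoform genes COX4I2, COX6A2, COX7A1 and COX8C had no read. The 13 protein-coding genes of the mitochondrial genome were not listed under their current symbols and were not analysed here.

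Most genes of the biosynthetic lists were active, beside 39.2% of all protein-coding genes. Cholesterol synthesis had 22 of 23 genes active, including HMGCS1 (389, 405 and 429 CPM), which starts the pathway, and the squalene synthase gene FDFT1 (215, 316 and 308 CPM). Fatty acid synthesis had 13 of 16, with the desaturase SCD at 559, 1051 and 949 CPM and FASN at 394, 571 and 636 CPM. Serine, glycine and one-carbon metabolism had 19 of 22, with ATF4 (391 ± 76.6 CPM), the regulator of amino acid supply, and the mitochondrial folate enzyme MTHFD2 (356 ± 47.04 CPM) highest. FDFT1, SCD and FASN were each lowest in replicate 1. Of 10 polyamine genes 9 were active, with OAZ1, the antizyme that restrains polyamine synthesis, at 647 ± 147 CPM and its target ODC1 at 47.7 ± 18.98 CPM. In iron handling FTL outnumbered the heavy chain FTH1 (819 ± 59.4 CPM) by a ratio of 8.62 ± 1.14, and the exporter SLC40A1 and the hormone gene HAMP had no read. NRF2 targets and glutathione genes were active in 20 of 25 cases, with GSTP1 at 2738, 1948 and 1649 CPM, PRDX1 at 987, 2011 and 2056 CPM and NQO1 at 609 ± 52.1 CPM. GSTP1 was highest and PRDX1 lowest in replicate 1. GPX2, an intestinal glutathione peroxidase, had no read. Of 17 hypoxia genes 11 were active, led by NDRG1 (226 ± 27.9 CPM), while CA9, a carbonic anhydrase induced by hypoxia, had no read.

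The machinery of protein turnover and cell division was broadly present. Its active counts stand beside 39.2% of all protein-coding genes. Of 25 chaperones 22 were active with a median of 322 CPM, and all 13 translation elongation and termination genes were. HSPA5, the chaperone of the endoplasmic reticulum, had 2028 ± 386 CPM and HSPB1 1424 ± 86.7 CPM, while the stress-induced HSPA6 and HSPA1A had no read. HSPA1A has a near-identical copy, HSPA1B, which had 48.6 ± 16.4 CPM, so the pair cannot be told apart with certainty. The same holds for the initiation factor gene EIF3C, named after its values were seen, with 0, 0 and 1 reads, and its copy EIF3CL with none. Of 35 proteasome genes 30 were active, with PSMA7 at 777 ± 128 CPM. Of the immunoproteasome subunit genes PSMB9 (33.99 ± 9.04 CPM) was active, PSMB8 (0.312 ± 0.5400 CPM) was low and PSMB10 had no read. All 34 mitosis genes were active with a median of 143 CPM, led by TOP2A (951, 1185 and 1202 CPM), the proliferation marker MKI67 (769.8, 878 and 805 CPM) and CENPF (769, 781 and 785 CPM). DNA replication genes were lower, with 31 of 37 active and a median of 41.4 CPM, led by RRM1 (309 ± 24.9 CPM) and MCM7 (278 ± 76.5). Of 10 CDK inhibitors and quiescence genes 8 were active, with CDKN1C (185 ± 77.1 CPM) and CDKN1B (133 ± 20.5) after CDKN1A. Actin and tubulin genes had a median of 434 CPM with 32 of 36 active. ACTG1 (2055 ± 191 CPM) was above ACTB (804 ± 41.4) in every library by a mean ratio of 2.57 ± 0.359. ACTB has 14 named pseudogenes, and the handling of reads that match several copies is not given in the sources used here. This ratio is therefore uncertain, as are the FTL to FTH1 and LDHA to LDHB ratios above.

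**Figure D4:**
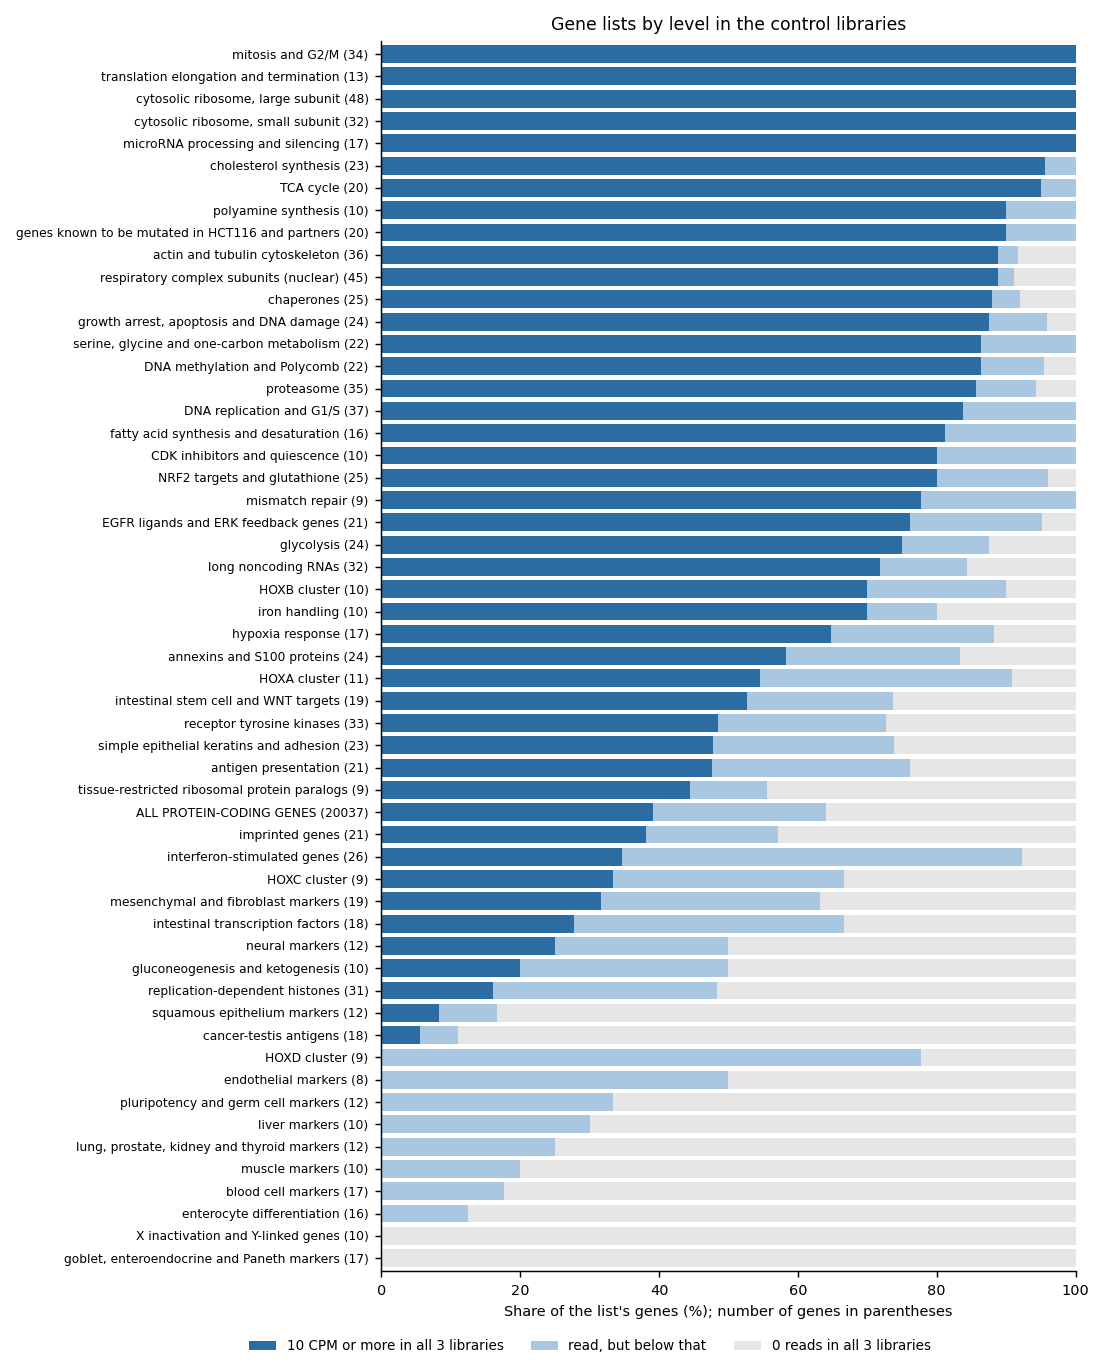
Each bar is 1 gene list, split by the share of its genes (%) at 10 CPM or more in all 3 control libraries, read below that level, or with 0 reads in all 3. The bar for all 20037 protein-coding genes stands at 39.2% active, with the ribosome, elongation, mitosis and microRNA lists at the top and the goblet and enterocyte lists at the bottom.

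The precision of a level depended on its height. The median SD was 11.2% of the mean for genes at 1000 CPM or more, 15.1% between 100 and 1000 CPM, 26.0% between 10 and 100 CPM and 67.1% between 1 and 10 CPM. Sampling of reads alone would give 2.64%, 7.83%, 18.5% and 52.1%. Of 4020 genes of 50 CPM or more, 334 (8.31%) varied more than 2-fold between the lowest and highest library. Over all 4020 genes replicate 1 was lowest in 1559 and highest in 1583, so it stood at either end. These counts cannot show whether it was low as a whole, because CPM sets every library to the same total. Among the 334, 189 were lowest and 127 highest in replicate 1. The 10 widest were all lowest there. They include SNRPG, a core splicing protein gene, with 43.96, 149.5 and 244 CPM, SOCS3, an inhibitor of cytokine signalling, with 38.3, 161 and 185 CPM, TAP2, MRPL34, CARD19, NPM3, RABGGTB and the serine synthesis gene PSAT1, with 25.3, 98.2 and 76.3 CPM. The genes above 2-fold that were lowest in replicate 1 had a median gene span of 16798 bases and those highest there 50556 bases, beside 33096 bases for all genes of 50 CPM or more. The part of gene span or of library preparation in this split was not tested. The 10 most even genes were CEP350, CSNK1A1, PLIN2, PALLD, GHITM, PWWP3A, IER3, CYB561, CENPF and CD151. CSNK1A1, a kinase of the WNT destruction complex, had 286, 285 and 284 CPM.

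Summed levels of lists also differed in replicate 1. Of 39 lists with at least 1000 reads, replicate 1 was lowest in 20 and highest in 9. It lay more than 10% below the mean of the other libraries in 12 lists, the most in DNA replication, with summed levels of 2119, 2849 and 2697 CPM. Cholesterol synthesis (2884, 3636 and 3685 CPM), serine and one-carbon metabolism (1825, 2383 and 2235 CPM) and fatty acid synthesis (2349, 2973 and 2861 CPM) were also lower there. Without the most abundant member of each list, an alternative chosen after seeing the data, 9 of these 12 lists were still more than 10% lower. Fatty acid synthesis was not, since without SCD its sums were 1789, 1922 and 1913 CPM. It lay more than 10% above the others in 6 lists, of which only HOXA and HOXB stayed so without their most abundant member. In the other 4 a single gene carried most of the gap. Without MALAT1 the long noncoding RNAs summed to 4079, 4453 and 4084 CPM, without FTL the iron genes to 1489, 1587 and 1427 CPM, and without HSP90AA1 the chaperones to 18180, 18820 and 17353 CPM. Without B2M antigen presentation summed to 2654, 2443 and 2498 CPM. Depth, library preparation and culture could not be told apart as sources of this gap, since the labels give none of them per library beyond the read totals.

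**Figure D5:**
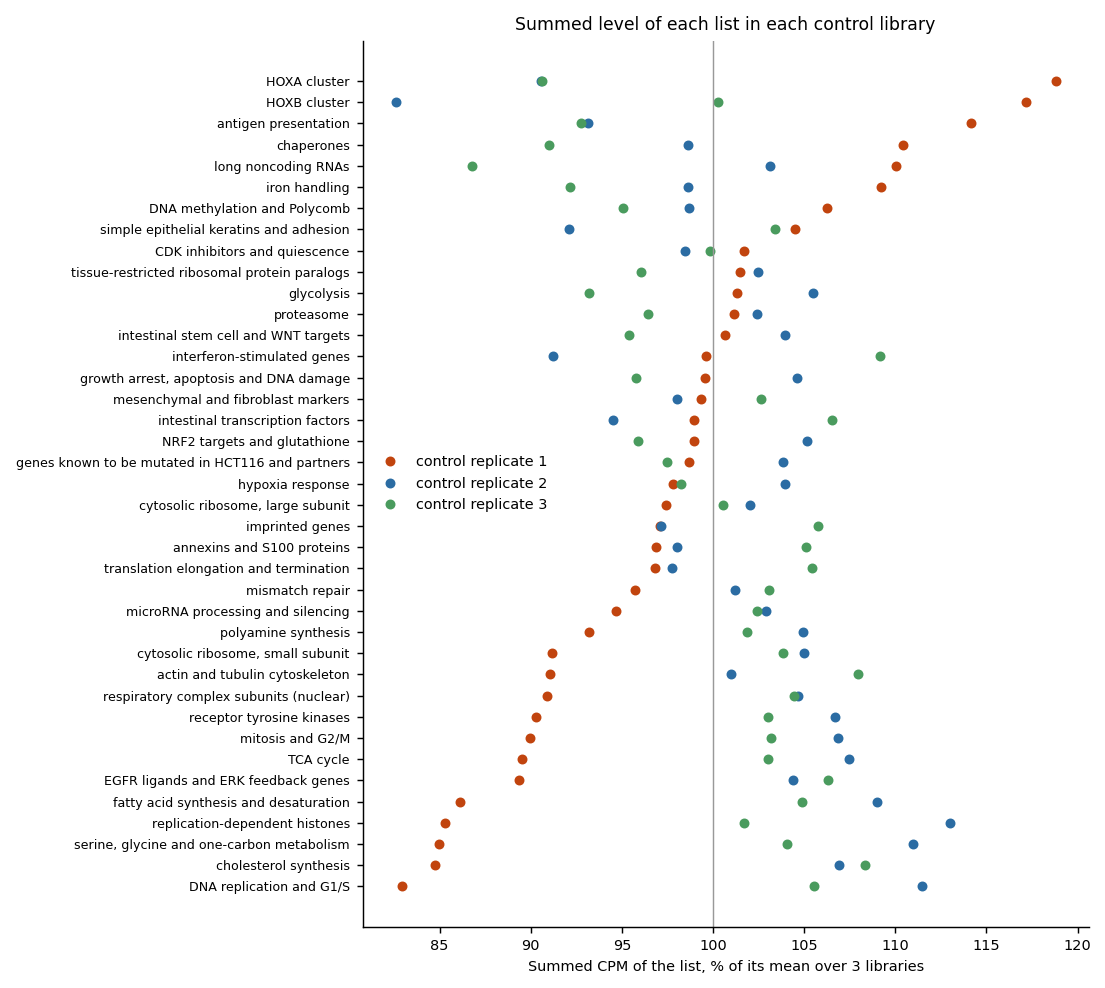
Each row is a list with at least 1000 reads, and each point is its summed CPM in 1 control library as a percentage of its mean over the 3 libraries. Control replicate 1 is the leftmost point in the lower rows, down to DNA replication at 2119 CPM, and the rightmost in the upper rows, up to HOXA.

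Genes without a read were common in families with narrow tissue use. The 7205 unread protein-coding genes are each below 1.06 CPM at 3 reads over the 3 libraries, a limit that covers counting error only. Of these, 6655 also had no read in the miR-148a-3p libraries. All 45 defensin genes and 16 of 17 type I interferon genes were unread, as were 384 of 392 olfactory receptors, 91 of 94 keratin-associated proteins and 30 of 39 interleukins. Single members stood out in these families, chosen after their values were seen. They were OR51B5, an olfactory receptor gene beside the beta-globin cluster, with 14.97, 33.1 and 19.1 CPM, KRTAP2-3 with 57.1, 42.2 and 49.4 CPM and the inflammasome cytokine gene IL18 with 73.9, 58.2 and 57.2 CPM. Families of general function were the reverse. Of 77 mitochondrial ribosomal protein genes 74 were active and none was unread, 32 of 38 DEAD-box helicase genes were active, and 30 of 36 ubiquitin-conjugating enzyme genes were. Between these lay the solute carriers, with 121 active (31.3%) and 132 unread (34.2%) of 386, near the 39.2% and 36% of all protein-coding genes, and the glucose transporter SLC2A3 (931 ± 166 CPM) highest. The ZNF zinc finger genes also lay between, with 115 active (22.2%) and 145 unread (28.0%) of 517. Both of these shares were below those of all protein-coding genes. Of 19 SOX factors 4 were active (21.1%), with SOX4 (639 ± 281 CPM) next to SOX9. Of 52 forkhead factors 12 were (23.1%), led by FOXC1 (132 ± 13.2 CPM) and FOXD1 (123 ± 31.4 CPM). Both shares lay below the 39.2% of all protein-coding genes. By chromosome, all 63 protein-coding genes placed on Y were unread, 51.7% of 848 on X and 53.6% of 239 on chromosome 21 were, and chromosome 14 had the highest active share at 45.1%.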

How the data were processed

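Human HCT116 cells with a DROSHA knockout were profiled by oligo-dT 3' end mRNA sequencing, with 3 control miRNA libraries described here and 3 miR-148a-3p libraries used only as added depth for genes without a read. The values the authors deposited are raw read counts, 1 per gene symbol and library, and symbols with no read in a library are missing from its list and were taken as 0. The submitters' processing notes name cutadapt, STAR, Bowtie2 and GRCh38. The role of each tool, the counter, the annotation, strand use and the handling of reads matching several genes were not given in the sources used here.

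Counts were divided by the library total and given per 1000000 (CPM), with Python 3.11.15, pandas 2.3.3, numpy 2.4.6 and matplotlib 3.10.9. The totals were 1069154, 876131 and 890849 counts. Size factors from edgeR 4.0.16 (TMM) and DESeq2 1.42.0 in R 4.3.3 served only as alternatives, and no differential test was made since the description concerns 1 group. The spread measures were tested on simulated data. Of 15659 symbols over the 6 mRNA libraries, 15603 matched a current symbol of the gene tables, 283 of them under another name. Gene spans and promoter sequences are RefSeq's in GRCh38.p14. Of 80 ribosomal protein genes, 64 have a promoter entry. Protein sequences and sequence features by abundance class were not analysed here.

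The libraries were chosen by their label, and the 54 gene lists (1047 distinct genes) were chosen with earlier results of these data known. Named genes are the 30 most abundant, up to 5 leading and up to 6 unread members of each list, all active members of lists of alternatives, the 10 widest and 10 narrowest genes of 50 CPM or more, and KRT18, KRT8, MALAT1, ANXA2, DROSHA, DDX6, XIST and CDKN2A. Other genes were named after their values were seen, among them further list members given beside their partners. Some members that this rule names are not reported here. Alternatives were size factors, totals without the 10 most abundant genes, each library left out, thinning to the smallest library, other thresholds and, chosen after seeing the data, list sums without the most abundant member.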

Additional observations from a re-analysis of the deposited data

Results flagged for a closer look

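Of the protein-coding genes with no read in the 3 control libraries, 99 had more than 3 reads over the 3 miR-148a-3p libraries, which are outside the control description. The largest counts there were 18 reads for LST1, 15 for CHN2 and 14 for EPPK1. No contrast between the 2 groups was tested here.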

How the results depend on the processing

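No paired analysis was possible because the description concerns 1 group and holds no comparison. Of 63 values of the main counts and shares under the alternatives, 62 stayed within 1.5 times (counts) or 1 SD (shares) of the value given. The exception is the number of genes of mean CPM above 0 to 1, which was 1662 with all libraries and 918 to 1218 with 1 left out, the fewest without control replicate 1. With 1 library left out, genes at 10 CPM or more in every remaining library numbered 8305 to 8450 and unread protein-coding genes 7465 to 7617. Requiring 5 or 20 CPM in place of 10 gave 9329 and 6021 genes. At 20 CPM the counts of 6 of 54 lists changed by over 1.5 times (HOXA, 6 to 3; HOXC, 3 to 1; mismatch repair, 7 to 4; CDK inhibitors, 8 to 5; histones, 5 to 3; gluconeogenesis and ketogenesis, 2 to 0). At 5 CPM 3 lists did, and without control replicate 3 the list of lung, prostate, kidney and thyroid markers went from 0 to 1. Neither set of size factors moved a list or any of 50 gene levels beyond 1 SD. Totals without the 10 most abundant genes moved 12 of the 50, all upward (RPS6 to 4352 CPM), by construction. Levels under about 3 reads per library, 2.81 to 3.42 CPM, rest on single reads.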

Other observations

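Imprinted genes, normally read from 1 parental allele, were active in 8 of 21 cases, close to the 39.2% of all protein-coding genes. PHLDA2, a growth-restraining gene of the placenta, had 1057, 1132 and 1184 CPM and the G protein subunit gene GNAS had 635, 726 and 770.1 CPM. PEG10 (192 ± 18.97 CPM), CDKN1C (185 ± 77.1) and the noncoding KCNQ1OT1 (112 ± 5.18) were active, whereas H19, MEG3, PEG3, SNRPN, SNURF and NDN had no read. IGF2, the neighbour of H19, had 1.06 ± 1.13 CPM. Of 22 DNA methylation and Polycomb genes 19 were active (86.4%), beside the same 39.2%. DNMT1, the maintenance methyltransferase, had 307, 251 and 223 CPM, and EZH2 (129 ± 13.9 CPM) and SUZ12 (207 ± 20.4) of the Polycomb repressive complex that writes H3K27 methylation were active, while DNMT3L had no read.

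Replication-dependent histone mRNAs lack a poly(A) tail and are mostly missed by oligo-dT priming. Of 31 such genes 5 were active (16.1%, beside 39.2% of all protein-coding genes) and 16 unread. Even so, H4C3 had 603, 955 and 879 CPM and the linker histone gene H1-2 687, 703 and 601 CPM. Other genes of high level chosen after their values were seen were SNHG25, a small nucleolar RNA host, with 1862, 1997 and 2208 CPM, the readthrough gene RTEL1-TNFRSF6B with 847, 1081 and 1284 CPM, SCARNA22, a small Cajal body RNA without a poly(A) tail, with 373, 477 and 629 CPM, and MTATP6P1, a nuclear copy of a mitochondrial gene, with 253, 241 and 235 CPM. How reads of overlapping or near-identical genes were assigned is not given in the sources used here, so such levels are uncertain.

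Annexins and S100 proteins, which bind calcium, had 14 of 24 members active (58.3%), beside 39.2% of all protein-coding genes. After ANXA2 came S100A6 (1183 ± 295 CPM), S100A4 (718 ± 79.6) and S100A11 (388 ± 69.7), while S100A8 and S100A9 of myeloid cells, S100A7 and ANXA13 had no read. Of 32 chosen long noncoding RNAs 23 were active, for which no share over all long noncoding RNAs was computed. After MALAT1 came SNHG29 (835 ± 97.8 CPM), CYTOR (526 ± 75.1) and OIP5-AS1 (457 ± 61.6), and HOTAIR (0.3805 ± 0.659 CPM) and HOTTIP (1.89 ± 1.74) of the HOX clusters were low.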
